A study of Homo sapiens with 6 samples.

Results

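The MAP kinase phosphatases are the members of the dual-specificity phosphatase (DUSP) family that bind MAP kinases and switch them off. The 10 genes DUSP1, DUSP2, DUSP4, DUSP5, DUSP6, DUSP7, DUSP8, DUSP9, DUSP10 and DUSP16 were chosen by family membership, with their differences between AZD7762 and DMSO already known. Each symbol matched 1 of the 60671 gene identifiers in the count files, and all 10 were among the 17649 genes that held enough counts to be tested. They were read as nuclear members (DUSP1, DUSP2, DUSP4 and DUSP5), cytoplasmic ERK-selective members (DUSP6, DUSP7 and DUSP9) and JNK/p38-selective members (DUSP8, DUSP10 and DUSP16). Because the choice rested on this comparison, the values of the members are a description and carry no p-value.

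RNA-seq of polyadenylated RNA was performed on EndoC-βH1, an insulin-secreting human β cell line that was immortalised from fetal pancreas, in 3 samples with the vehicle DMSO and 3 with 1 µM AZD7762, an inhibitor of the checkpoint kinases CHEK1 and CHEK2. The cells of both groups were labelled WT and spent 1 h in 0.5 mM glucose and another 1 h in 0.5 or 20 mM glucose, with DMSO or the inhibitor present throughout. Neither the glucose of the last hour nor which of the library kits was used is given for each sample here, so a part of either in the differences was not tested. All samples come from 1 cell line, and no label says that replicates were separate cultures, so the tests measure the spread between these samples, which may be technical.

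MAP kinases are switched on when an upstream kinase phosphorylates a threonine and a tyrosine in their activation loop. The phosphatases of this family remove both phosphates. A docking domain selects the kinase, ERK, JNK or p38, and the location of the phosphatase decides where in the cell the kinase is switched off. Several members are transcribed within minutes of MAP kinase or cAMP signalling and so close a negative feedback loop. In β cells, glucose raises calcium and activates ERK, and transcripts of this family are among those that respond.

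The libraries held between 20486391 and 29402440 counts, so that the floor of 3 counts equalled 0.102 to 0.146 CPM (counts relative to a fixed library size), a limit that covers counting error only. Levels are given as CPM normalized by TMM factors, which correct the library totals for composition. All 12 β cell markers listed were tested, and MAFA was the 1 among them that was called different. Of 21 markers of other cell types, 11 were tested, and their summed level was between 2080 and 2400 CPM with DMSO and between 2290 and 2560 CPM with AZD7762. Most of that sum was TTR and SST. Of the 4 acinar markers listed, PRSS1, CELA3A and CTRB1 were at 0 counts in every sample, whereas CPA1 was detected throughout. Every treated sample exceeded every vehicle sample for CPA1, whose log2 fold change was 0.24 on a vehicle mean of 21.8 CPM. The same held for the stromal marker COL1A2 (log2 fold change 0.577, vehicle mean 2.92 CPM) and for SST (0.241, vehicle mean 215 CPM). None of these was called, and the groups overlapped for the other tested markers of other cell types. Mitochondrial genes held between 1.57% and 2.13% of the counts with DMSO and between 2.26% and 2.63% with AZD7762, a shift between the groups whose part in the results was not tested. In bulk RNA, fewer cells that express a gene and less RNA of it per cell cannot be told apart.

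DUSP1 and DUSP4 rose more than 3-fold with AZD7762, whereas DUSP6 and DUSP8 fell by 39.2% and 32.0%. With edgeR's quasi-likelihood test and a threshold of 0.05 on the p adjusted over all genes tested, 4 of the 10 members were called different, against 0.708% of all genes. Of these, 2 were called higher, against 0.357% of all genes, and 2 lower, against 0.351%. In 6 of the 10, the ranges of the 3 DMSO and the 3 AZD7762 samples did not overlap, which held for 15.0% of all genes. Nothing is read from these shares, since the members were picked on the same contrast. The median log2 fold change was 1.11 for the nuclear members, -0.16 for the cytoplasmic ERK-selective members and -0.16 for the JNK/p38-selective members, beside 0.00756 for all genes tested.

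**Figure D1:**
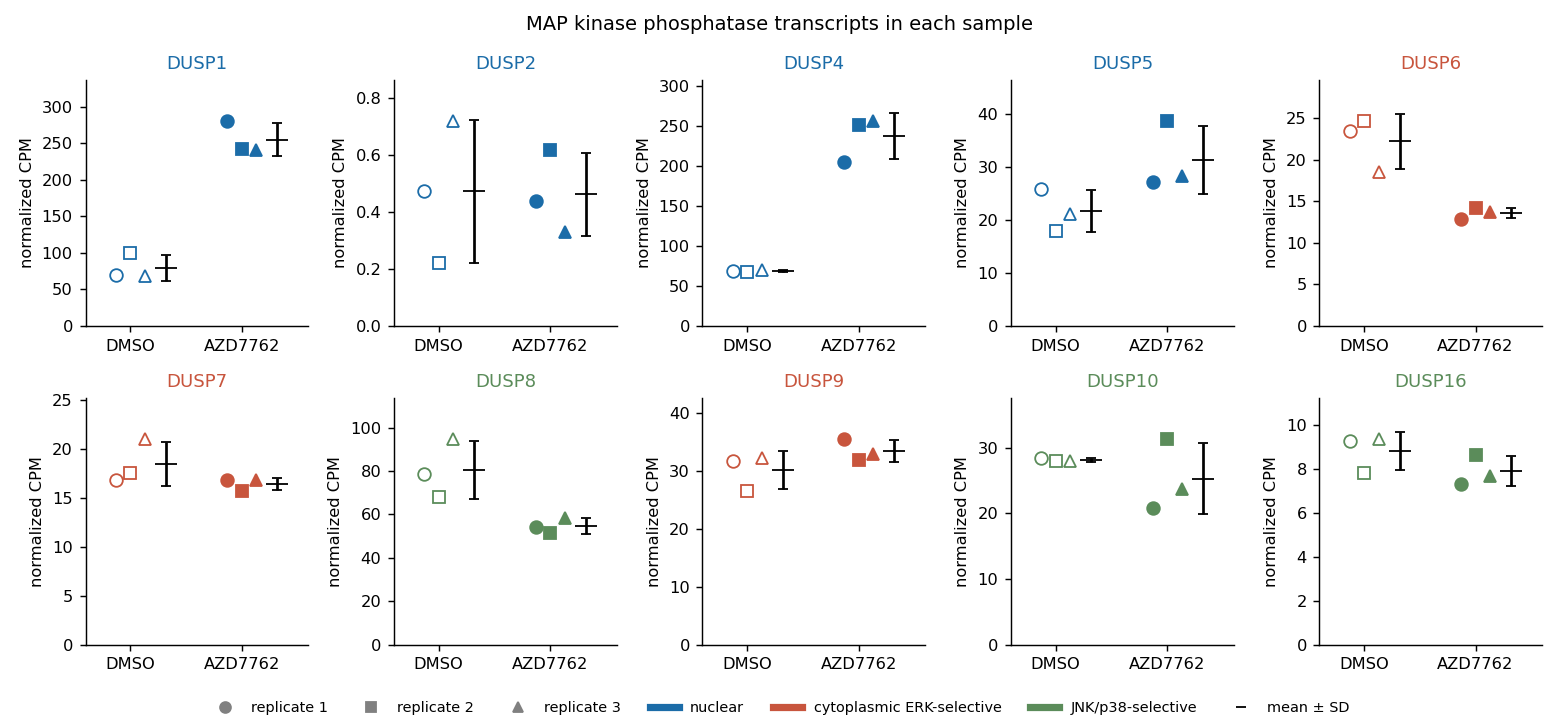
Normalized CPM (vertical axes, each from 0) of the 10 phosphatase genes in every sample, with DMSO as open and AZD7762 as filled symbols, the replicate number as the symbol's shape, the class as its colour, and the mean ± SD of 3 samples beside the points. The AZD7762 samples of DUSP1 (from 241 to 281) and DUSP4 (from 205 to 257) lie far above their DMSO samples, and those of DUSP6 and DUSP8 lie below theirs.

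Of the 4 members called different, 3 have a promoter in the RefSeq table used here (GRCh38.p14), which gives 250 bases before and 50 after a transcription start. These promoters are shown because the cAMP response element (CRE), a palindrome bound by CREB family factors, occurs in those of DUSP1, which rose, and of DUSP8, which fell, but not in that of DUSP6. Capitals mark the full CRE, TGACGTCA, and its core, TGACG or on the other strand CGTCA, and the strand printed is that of the gene. The DUSP1 promoter is chr5:172771146-172771445 on the minus strand, that of DUSP8 is chr11:1572222-1572521 on the minus strand and that of DUSP6 is chr12:89352452-89352751 on the minus strand.
DUSP1: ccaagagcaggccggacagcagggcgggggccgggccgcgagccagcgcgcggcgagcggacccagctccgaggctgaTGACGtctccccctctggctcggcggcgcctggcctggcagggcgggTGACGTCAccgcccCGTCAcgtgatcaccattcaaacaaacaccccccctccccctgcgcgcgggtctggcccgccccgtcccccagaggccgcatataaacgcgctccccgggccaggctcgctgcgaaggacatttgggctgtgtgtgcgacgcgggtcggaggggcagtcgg
DUSP8: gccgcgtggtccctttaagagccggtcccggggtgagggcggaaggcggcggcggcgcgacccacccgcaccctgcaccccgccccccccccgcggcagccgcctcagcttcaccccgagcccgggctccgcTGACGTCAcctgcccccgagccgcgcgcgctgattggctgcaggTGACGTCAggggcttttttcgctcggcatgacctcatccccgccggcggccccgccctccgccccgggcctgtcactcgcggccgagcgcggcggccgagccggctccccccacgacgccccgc
DUSP6: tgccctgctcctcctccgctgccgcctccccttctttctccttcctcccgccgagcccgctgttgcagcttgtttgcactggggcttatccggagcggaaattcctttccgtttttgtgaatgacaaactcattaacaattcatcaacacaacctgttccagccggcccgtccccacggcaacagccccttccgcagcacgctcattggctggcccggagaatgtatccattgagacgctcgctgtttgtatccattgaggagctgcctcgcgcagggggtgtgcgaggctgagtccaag

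The DUSP1 promoter held 1 full CRE that began 125 bases upstream of the start, and 4 core matches at 172, 125, 122 and 111 bases upstream, of which those at 125 and 122 are the arms of the full site. The core match at 111 overlaps an E-box, CACGTG, at 108 bases upstream, the motif of MYC and USF factors. The DUSP8 promoter held 2 full CREs, at 118 and 74 bases upstream, whose arms made up its 4 core matches. Of the 35116 promoters in the table, 1.85% held a full CRE and 24.6% a core match on either strand. The same element stood in the promoter of a gene that rose and of a gene that fell, and its part in either change was not tested.

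Of the other members with a promoter entry, DUSP2 held an E-box at 113 bases upstream (7.26% of all promoters), and the second of the 2 DUSP10 promoters held a core match at 4 bases upstream. No match to any motif searched was found in the promoters of DUSP6, DUSP7, DUSP9 and DUSP16. The AP-1 site TGANTCA, the ETS sequence CCGGAA and the CArG box matched in none of the 8 members with an entry. They occurred in 7.71%, 17.2% and 1.29% of all promoters. The shorter GGAA within the ETS sequence was not searched by itself, and it does occur in the DUSP6 promoter printed above. These matches are letters in a window of fixed length and not measured binding. DUSP4 and DUSP5 had no entry.

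**Figure D2:**
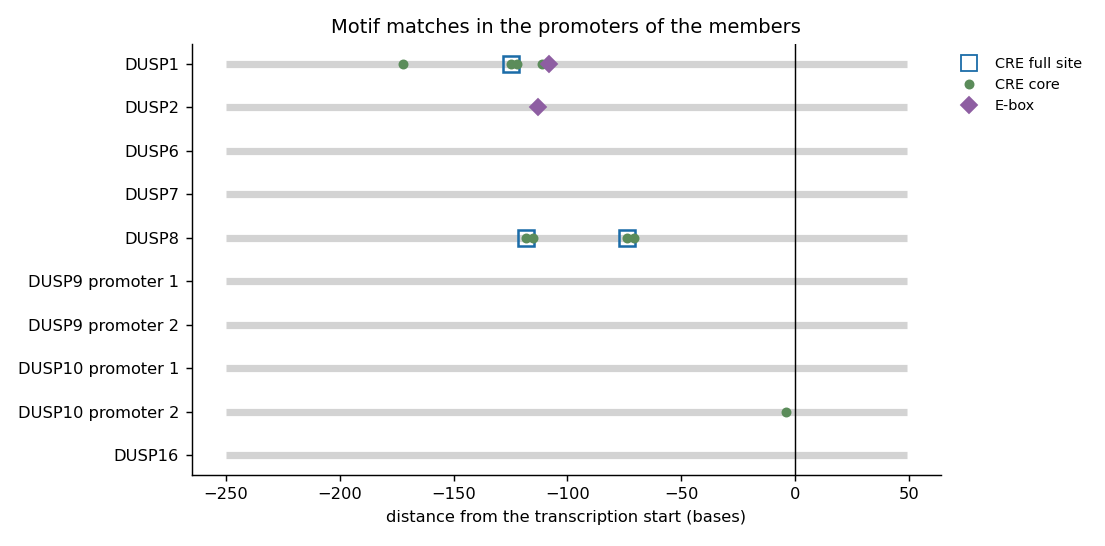
Motif matches in the RefSeq promoters of 8 members, by the distance of their first base from the transcription start in bases (horizontal axis, negative is upstream), with full CREs as open squares, core matches as dots and E-boxes as diamonds. DUSP1 has 1 full CRE and DUSP8 has 2, all between 74 and 125 bases upstream.

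The nuclear members held both of the large rises. DUSP1 (ENSG00000120129, chr5:172195099-172198198 of GRCh37, minus strand) encodes an immediate early phosphatase of p38, JNK and ERK. Its level was 69.3, 99.8 and 68.7 CPM in DMSO replicates 1, 2 and 3, and 281, 243 and 241 CPM in AZD7762 replicates 1, 2 and 3. Every AZD7762 sample was above every DMSO sample, and DMSO replicate 2 stood above the other DMSO samples. The mean rose 3.22-fold, from 79.3 ± 17.8 to 255 ± 22.5 CPM (SD, n = 3 per group), or 1.69 on the log2 scale with a standard error of 0.125. The log2 fold change was between 1.59 and 1.88 in the 16 alternative fits, and DUSP1 was called in all 16.

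DUSP4 (ENSG00000120875, chromosome 8 from 29190581 to 29208201 of GRCh37, minus strand) encodes a nuclear phosphatase that acts on ERK and JNK. It had 69.1, 67.4 and 69.7 CPM with DMSO and 205, 252 and 257 CPM with AZD7762. The DMSO samples had a coefficient of variation of 1.73%, and AZD7762 replicate 1 was the lowest of the treated samples. The mean rose 3.46-fold, from 68.7 ± 1.19 to 238 ± 28.7 CPM, or by 1.79 on the log2 scale (standard error 0.0828). It was called in all 16 alternatives, with log2 fold changes between 1.73 and 1.88. Of the 10 members, DUSP4 had the largest log2 fold change in the fit reported and DUSP1 the next, and their standard errors overlap.

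DUSP5 (ENSG00000138166, chr10:112257665-112271291, plus strand) encodes a nuclear phosphatase that acts on ERK alone and holds it in the nucleus. Its level was 25.8, 18.0 and 21.2 CPM with DMSO and 27.1, 38.7 and 28.2 CPM with AZD7762. No AZD7762 sample was below a DMSO sample, but DMSO replicate 1 came close to AZD7762 replicate 1. The means were 21.7 ± 3.91 and 31.3 ± 6.39 CPM, and the log2 fold change of 0.53 (standard error 0.145) was not called. DUSP5 was called without the filter on low counts, with DESeq2, with edgeR's likelihood ratio test, and in the fit with both a correction for GC content and length and the replicate number as a term.

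DUSP2 (ENSG00000158050, chr2:96808908-96811179, minus strand) encodes a nuclear phosphatase known best from activated immune cells. It was near the floor, with 14, 6 and 15 counts with DMSO and 11, 13 and 7 counts with AZD7762. These counts gave 0.474, 0.221 and 0.719 CPM with DMSO and 0.437, 0.618 and 0.328 CPM with AZD7762, and the groups overlapped. The log2 fold change was 0.02 with a standard error of 0.425 and changed sign in 6 of the 15 alternatives that gave it a value, from -0.34 without DMSO replicate 2 to 0.38. A difference of the size seen for DUSP5 was not detectable for DUSP2 at this depth.

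**Figure D3:**
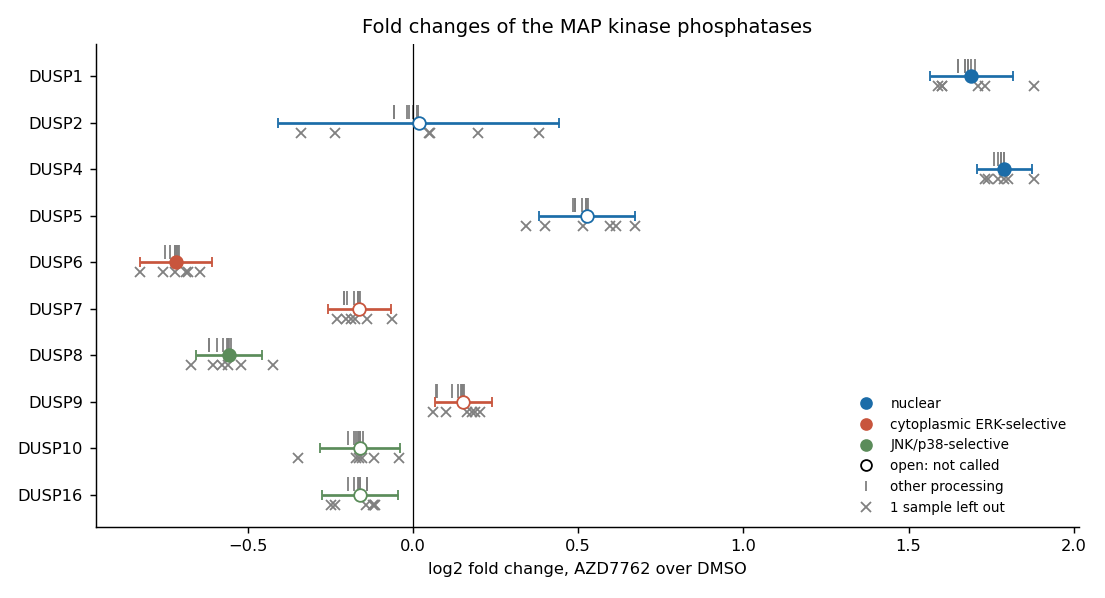
Log2 fold change of AZD7762 over DMSO (horizontal axis) for each member, with the standard error as the bar, filled circles for members called over all genes, ticks for fits with other processing and crosses for fits without 1 sample. DUSP1 and DUSP4 stay above 1.5 and DUSP6 and DUSP8 below 0 in every fit, whereas the values of DUSP2 lie on both sides of 0.

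Among the cytoplasmic ERK-selective members, DUSP6 fell, and the other two were not called. DUSP6 (ENSG00000139318, chr12:89741012-89746278, minus strand) encodes the phosphatase that is induced by ERK signalling and in turn removes the phosphates of ERK. Its level was 23.5, 24.7 and 18.5 CPM with DMSO and 12.9, 14.2 and 13.7 CPM with AZD7762. The treated samples lay within a narrow range below all DMSO samples, of which replicate 3 was the lowest. The mean went from 22.3 ± 3.27 to 13.6 ± 0.648 CPM, 0.608 of the DMSO level, with a log2 fold change of -0.72 (standard error 0.108). DUSP6 was called in every alternative except the fit without AZD7762 replicate 1, and its log2 fold change was between -0.83 and -0.64. An antisense gene, ENSG00000274021, covers 28.6% of the exons of DUSP6 and held between 2 and 5 counts in each library. Since no source used here gives the strand setting, reads of the 2 genes cannot be told apart in the shared part.

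DUSP7 (ENSG00000164086, chr3:52082935-52090587, minus strand) encodes a close relative of DUSP6 that also acts on ERK. It had 16.8, 17.6 and 21.0 CPM with DMSO and 16.8, 15.7 and 16.8 CPM with AZD7762. DMSO replicate 3 stood above the rest, and the lowest DMSO sample exceeded the highest AZD7762 sample by less than the last digit given. The log2 fold change of -0.16 (standard error 0.0958) was not called. DUSP9 (ENSG00000130829, chrX:152907946-152916781, plus strand) encodes an ERK-preferring phosphatase known from placenta and insulin-responsive tissue. It had 31.8, 26.5 and 32.3 CPM with DMSO and 35.5, 31.9 and 33.0 CPM with AZD7762, so that AZD7762 replicate 2 fell between DMSO samples. Its log2 fold change was 0.15 (standard error 0.0859) and it was not called. With the values of both near those of DMSO, DUSP6 was the 1 member of its class whose groups were clearly apart.

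Among the JNK/p38-selective members, DUSP8 fell. DUSP8 (ENSG00000184545, chr11:1575281-1593501, minus strand) encodes a phosphatase of JNK and p38 that is expressed mainly in brain and heart. It had 78.8, 68.2 and 94.6 CPM in the DMSO samples and 54.1, 51.4 and 58.5 CPM in the AZD7762 samples. All AZD7762 samples were lower than all DMSO samples, and DMSO replicate 3 was the highest. The mean went from 80.5 ± 13.3 to 54.7 ± 3.56 CPM, 0.680 of the DMSO level and -0.56 as log2 fold change (standard error 0.101). DUSP8 was not called without DMSO replicate 1, without AZD7762 replicate 1 or without AZD7762 replicate 2, and its log2 fold change lay between -0.67 and -0.42.

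DUSP10 (ENSG00000143507, chr1:221874766-221915431, minus strand), which acts on JNK and p38 in nucleus and cytoplasm, had 28.5, 28.0 and 28.0 CPM with DMSO and 20.8, 31.3 and 23.7 CPM with AZD7762. The DMSO samples were almost equal, with a coefficient of variation of 1.02%, whereas the AZD7762 samples spread on both sides of them, with one of 21.5%. Its log2 fold change of -0.16 (standard error 0.120) was not called. DUSP16 (ENSG00000111266, chr12:12626216-12715797, minus strand), a phosphatase that prefers JNK and shuttles between nucleus and cytoplasm, had 9.28, 7.80 and 9.35 CPM with DMSO and 7.32, 8.65 and 7.69 CPM with AZD7762. The groups overlapped through DMSO replicate 2 and AZD7762 replicate 2, and the log2 fold change of -0.16 (standard error 0.114) was not called. Without AZD7762 replicate 2, the median of this class was -0.35 instead of -0.16.

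Levels were compared between the genes as normalized CPM per kilobase of merged exon. With DMSO, DUSP1 was the highest at 39.4 ± 8.83, followed by DUSP8 at 16.2 ± 2.68, DUSP9 at 10.9 ± 1.15, DUSP10 at 9.97 ± 0.102, DUSP4 at 9.45 ± 0.164 and DUSP5 at 8.54 ± 1.54 CPM per kb. Below them came DUSP6 at 5.77 ± 0.848, DUSP7 at 3.26 ± 0.392, DUSP16 at 1.23 ± 0.123 and DUSP2 at 0.244 ± 0.129 CPM per kb. The samples of DUSP9 and DUSP10 overlapped, as did those of DUSP4 and DUSP5, and the other neighbours in this order were separated. With AZD7762, DUSP1 stayed first at 127 ± 11.2 CPM per kb and DUSP4 was next at 32.7 ± 3.95, a move from place 5 to place 2. DUSP8 went from place 2 to place 5, at 11.0 ± 0.719 CPM per kb, and the samples of DUSP5, DUSP9, DUSP8 and DUSP10 overlapped from neighbour to neighbour. The lower end of the order, from DUSP6 through DUSP7 and DUSP16 to DUSP2, was the same in both groups. With the longest transcript in place of merged exons, DUSP4 stood at place 4 with DMSO, and with AZD7762 DUSP9 passed DUSP5 and DUSP7 passed DUSP6.

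The sum over the 10 genes was 105 ± 4.26 CPM per kb with DMSO, with samples from 102 to 110, and 212 ± 5.45 with AZD7762, with samples from 206 to 217. Without DUSP1 and DUSP4, left out after their values were seen, the sums were 56.1 ± 4.45 and 52.2 ± 3.60 CPM per kb, and the samples overlapped (from 51.0 to 59.2 and from 49.3 to 56.2). The net difference in the family's total was thus carried by these 2 genes. Means of the other genes moved both ways between DMSO and AZD7762. For example, DUSP5 went from 8.54 to 12.4 and DUSP8 from 16.2 to 11.0 CPM per kb. The nuclear members made up 54.8% ± 4.76 of the sum with DMSO and 81.3% ± 0.890 with AZD7762. The cytoplasmic ERK-selective members went from 19.0% ± 1.45 to 8.75% ± 0.221 of the sum, although their own summed level, 19.9 ± 0.752 and 18.5 ± 0.574 CPM per kb, differed by less than 2 CPM per kb. The summed level of the JNK/p38-selective members was 27.4 ± 2.77 with DMSO and 21.1 ± 1.69 CPM per kb with AZD7762, or 26.2% ± 3.48 and 9.97% ± 0.961 of the family's sum. DUSP1 alone held 37.3% ± 6.75 of it with DMSO and 59.8% ± 3.91 with AZD7762. With the longest transcripts, the nuclear share was 53.4% and 80.3%.

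**Figure D4:**
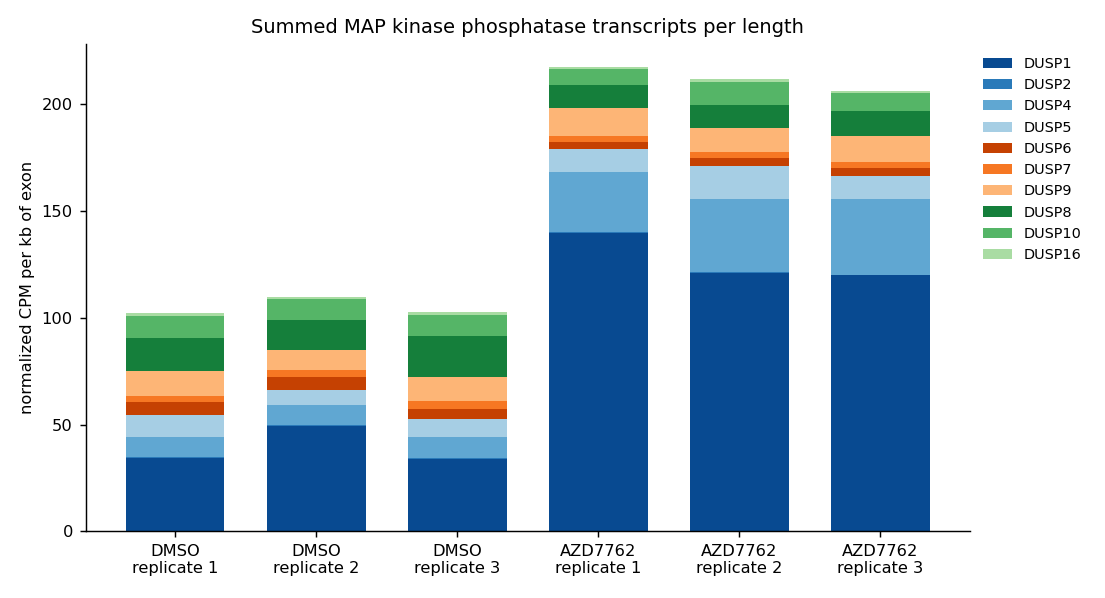
Normalized CPM per kb of exon (vertical axis, from 0) summed over the 10 members in each of the 6 samples, with nuclear members in blue, cytoplasmic ERK-selective members in orange and JNK/p38-selective members in green (DUSP2 is too low to be seen). The total is between 102 and 110 in the DMSO samples and between 206 and 217 in the AZD7762 samples. The largest increases are in the DUSP1 and DUSP4 segments.

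Features of the genes that the choice did not use were set beside these classes. The 4 nuclear members have 4 exons each in the transcript used, DUSP6 and DUSP7 have 3, DUSP9 and DUSP10 have 4, and DUSP8 and DUSP16 have 7. The longest coding sequences were those of DUSP16 (1995 bp) and DUSP8 (1875 bp) and the shortest that of DUSP2 (942 bp). The pentamer ATTTA, the core of the AU-rich elements that shorten the life of many mRNAs, occurred 4 times in the 666 bp of the 3′ UTR of DUSP1, or 6.01 times per kb, a density above that of 94.1% of 18060 protein-coding genes. DUSP2, with 3 in 654 bp, lay above 88.3% of them. DUSP4, the other gene that rose, had 6 in 3962 bp, or 1.51 per kb, near the median of 1.68 per kb over these protein-coding genes. DUSP5 and DUSP7 had none, as did 28.6% of these genes, and DUSP6 had 1 in 2019 bp. DUSP8, which fell, had 4 in 2467 bp, or 1.62 per kb. DUSP9, DUSP16 and DUSP10 had 0.979, 2.25 and 3.04 per kb. The 3 cytoplasmic ERK-selective members thus lay below the 3 JNK/p38-selective members, while the nuclear members spanned the whole range. A longer AU-rich sequence, TTATTTA with A or T at each of the next 2 bases, occurred 2 times in the 3′ UTR of DUSP1. It occurred 1 time each in those of DUSP4, DUSP8 and DUSP10 and in none of the other members, against 20.4% of these genes with any.

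None of the kinases on which these phosphatases act, or of the kinases above and below them, was called different between the groups. Of 48 cascade genes listed, 47 were tested and 0 were called in edgeR's quasi-likelihood test, in DESeq2, in edgeR's likelihood ratio test or in any other alternative run. At an unadjusted p under 0.05 there were 4 of 47, against 9.68% of all genes tested, namely HRAS and MAPK3 with a positive and MAPK8 and MAP3K4 with a negative fold change. The median log2 fold change of the list was 0.02, and its members lay between -0.18 and 0.19. The largest in size were those of MAP2K2, the kinase that activates ERK (0.19, standard error 0.0926, adjusted p = 0.557), HRAS, a small GTPase upstream of RAF (0.18, standard error 0.0751, adjusted p = 0.460), and MAP3K6, a stress-activated kinase (0.18, standard error 0.131, adjusted p = 0.708), all from edgeR's test.

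Of the substrates, 3 are named here with their values known. MAPK3, an ERK gene, had 83.7 ± 3.87 CPM in the DMSO samples and 92.5 ± 4.76 CPM in the AZD7762 samples (SD, n = 3 per group). The JNK gene MAPK8 had 110 ± 2.03 and 99.6 ± 1.36 CPM, and the p38 gene MAPK14 had 69.0 ± 3.29 and 70.8 ± 3.50 CPM, in the same order. None of these was called. By module, the median log2 fold change was 0.05 for 11 ERK genes, -0.03 for 12 JNK genes, 0.07 for 10 p38 genes, -0.04 for 7 genes of ERK5 and the atypical MAP kinases and 0.05 for 7 kinases that ERK activates.

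Other phosphatases that act on MAP kinase pathways were listed together with atypical DUSPs and related pseudophosphatases, which lack catalytic activity. These numbered 23, of which 22 were matched and 18 tested. None was called by edgeR or in any alternative, DESeq2 included, and 0 had an unadjusted p under 0.05. Their log2 fold changes were between -0.06 and 0.21, with a median of 0.00812. The largest in size was that of DUSP26, an atypical member expressed in neuroendocrine cells (0.21 with standard error 0.105, and edgeR's adjusted p = 0.560), and those of DUSP23 and STYXL1 were 0.11 and 0.08 (edgeR's adjusted p = 0.782 and 0.850). Neither list held a gene whose log2 fold change came near that of DUSP5, DUSP6 or DUSP8.

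**Figure D5:**
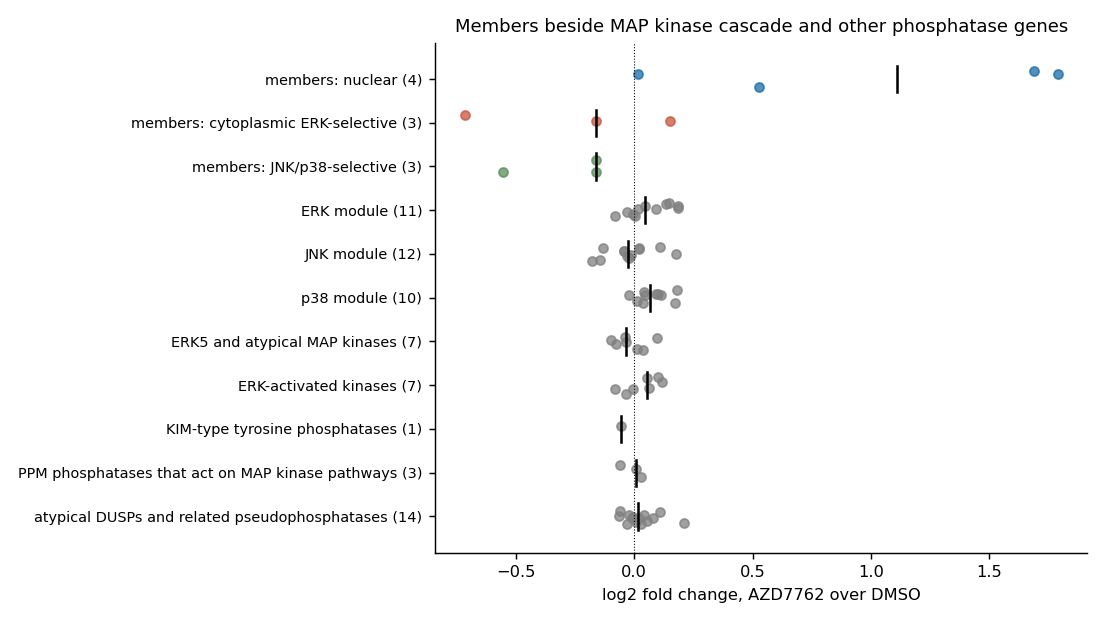
Log2 fold change of AZD7762 over DMSO (horizontal axis) for each tested gene of the phosphatase family by class (coloured) and of the cascade and other phosphatase groups (grey), with the number of tested genes in brackets and the median as a bar. The cascade genes lie between -0.18 and 0.19, whereas DUSP1 and DUSP4 lie at 1.69 and 1.79.

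The genes whose 6 values, as log2 CPM centred on the DMSO mean, lay closest to those of DUSP4 were KLF4, FOSL2 and LINC01679, with root mean square differences of 0.0808, 0.203 and 0.203. KLF4, a zinc finger transcription factor, had 11.2, 11.6 and 12.5 CPM with DMSO and 39.3, 43.9 and 41.9 CPM with AZD7762, which is 1.83 as log2 fold change. FOSL2, an AP-1 subunit, had 3.15, 2.28 and 2.25 CPM with DMSO and 7.16, 12.2 and 9.15 CPM with AZD7762, which is 1.86 as log2 fold change. In both, as in DUSP4, AZD7762 replicate 1 was the lowest of the treated samples and lay above all DMSO samples. Since both were picked for closeness to DUSP4 in these same 6 values, nothing is read from the shared order. LINC01679, a long non-coding RNA, had 1.51, 2 and 1.36 CPM with AZD7762. Its log2 fold change was 3.03, well above that of DUSP4. With DMSO it was close to the floor, at 0.144 to 0.271 CPM, where the prior count used for log2 CPM draws values together.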

How the data were processed

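RNA-seq of polyadenylated RNA was carried out in 6 EndoC-βH1 samples, 3 per group, grouped by the treatment in their labels. The submitters' processing notes name FastQC 0.10.1, cutadapt 1.18 and GRCh37. Per the study's methods, the authors trimmed and aligned the reads and used HTSeq-count for counting per gene. What they deposited are raw counts, without scaling or a filter. The aligner and strand setting are not given in the sources used here.

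The analysis used edgeR 4.0.16 with limma 3.58.1 under R 4.3.3. filterByExpr left 17649 genes, TMM factors scaled the libraries, and the quasi-likelihood test, two-sided, was adjusted by Benjamini-Hochberg over these genes, with a threshold of 0.05. Standard errors come from the fitted log2 fold change and its F statistic. Alternatives were other scaling and filters, DESeq2 1.42.0, the likelihood ratio test, the replicate number as a block, a correction for trends in GC content and length, and each sample left out. The procedure was tested on simulated counts with known changes. There the quasi-likelihood test called 90 of 108 genes changed by 0.7 on the log2 scale and 92 of 92 changed by 1.5. Among the 17408 genes tested there, it also called 19 unchanged genes, and the likelihood ratio test called 34 unchanged genes. Only genes expressed above the level of DUSP2 were given a change, so these call rates do not cover DUSP2. Symbols, GRCh37 positions, exons and UTRs came from GENCODE release 44 mapped to GRCh37, which matched 58646 identifiers (96.7%) and is not the release of the files. Promoters came from RefSeq (GRCh38.p14) by symbol, with 8 of 10 members found. Motifs were searched on both strands.

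The members and lists were chosen with earlier results of these data known. The genes named are the 10 members, the called genes of the 2 other lists or else the 3 largest log2 fold changes of each, and the 3 genes closest to the member that changed most. Protein sequences were not used here, and 1 gene of the cascade list is not reported here by itself.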

Additional observations from a re-analysis of the deposited data

How the results depend on the processing

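The log2 fold changes of 9 of the 10 phosphatase genes kept their sign in the 16 alternatives run, and DUSP2, near the floor, did not. The median of the nuclear members was 1.68 with at least 10 counts in every sample, where DUSP2 is not tested. Leaving out 1 sample at a time, the median of the nuclear members was between 1.03 and 1.16. That of the cytoplasmic ERK-selective members was between -0.231 and -0.0624 (without DMSO replicate 3), and that of the JNK/p38-selective members between -0.348 (without AZD7762 replicate 2) and -0.114. The number of members called was between 2, without AZD7762 replicate 1, and 4, and it was 4 or 5 in the alternatives that kept all samples. Over all genes, 125 were called, against 330 without a filter on low counts, 267 with the likelihood ratio test and 220 after the correction for GC content and length, and the cause was not tested. Leaving out 1 sample gave 77 genes where it was AZD7762 replicate 1 and 168 where it was DMSO replicate 3, the lowest and highest of these counts. With library totals alone, 39.6% of the calls were higher with AZD7762, against 50.4%, and leaving out 1 sample gave from 48.4% to 64.3%. With the replicate block, 378 genes were called, and 612 with the replicate block and that correction together. The members called stayed 4 with the block and were 5 with both. The numbers were not taken as pairs, since no label says that a number marks a shared culture or day. The deviations of same-numbered samples correlated at 0.0831, 0.175 and 0.278. Those of differently numbered samples correlated between -0.336 (DMSO replicate 3 with AZD7762 replicate 2) and 0.238 (DMSO replicate 1 with AZD7762 replicate 2). These values do not settle whether the numbers mark pairs. Cascade genes and other phosphatases had 0 calls in every alternative. DUSP2 had the lowest depth of the members, at 6 to 15 counts.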
